A study of Mus musculus with 48 samples.

Results

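The 10 genes described here code for the glucocorticoid receptor, for products that glucocorticoids are known to induce, and for enzymes that make or reactivate the hormone. They were picked by symbol from the 55401 genes of the count table and are *Nr3c1*, *Fkbp5*, *Tsc22d3*, *Zbtb16*, *Klf9*, *Mt1*, *Mt2*, *Cyp11a1*, *Hsd11b1* and *Errfi1*. The question put to them was whether rhythms that the hormone may drive persist when the clock of the intestinal epithelium is lost. RNA of colon tissue from 48 male littermates on the C57BL/6J background, aged 18 to 20 weeks, was sequenced, with 4 mice in each of 12 groups. All mice carried the floxed *Bmal1* alleles (Bmal1fl/fl), and the controls carried no Cre. Bmal1IEC-/- mice carried in addition 1 copy of Cre under the *Villin* promoter, which is active in the intestinal epithelium, so that the other cells of the colon keep *Bmal1*. Mice of both genotypes had chow ad libitum and running wheels and were sampled at circadian times (CT) 1, 5, 9, 13, 17 and 21 h on the second day of constant darkness. CT1, CT5 and CT9 lie in the rest phase of the mouse and CT13, CT17 and CT21 in its active phase. The level of corticosterone in these mice was not analysed here.

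Glucocorticoids, mainly corticosterone in mice, are released by the adrenal gland in a daily rhythm that is set by the central clock in the brain and reaches its peak around the start of the active phase. The hormone binds the receptor NR3C1, which HSP90 chaperones and the co-chaperones FKBP4 and FKBP5 hold ready in the cytoplasm, and the bound receptor enters the nucleus and raises or lowers the transcription of its target genes. *Per1*, a core clock gene, is itself such a target, so a gene of this kind can receive timing from the hormone as well as from the clock of its own cell. Inside the cell, HSD11B1 regenerates active hormone and HSD11B2 inactivates it.

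The 250 bases upstream of the RefSeq start sites were searched on both strands for 5 short motifs in all 32851 promoters of the table (assembly GRCm38.p6), and a match is a description of the letters only. The full glucocorticoid response element, which is the half-site AGAACA and its reverse complement with 3 bases of any kind between them, stood in 3 promoters, or 0.00913% of all, and in none of the members' windows. The half-site alone stood in 16.1% of promoters, the E-box CACGTG, which CLOCK and BMAL1 bind, in 6.02%, the metal response element (TGCACNC or TGCGCNC) in 21.4%, and the D-box (TTATGTAA or TTATGCAA) in 1.5%. For 8 of the 10 members the table held a promoter, with 12 windows in all. *Tsc22d3* was the 1 member with a half-site and *Fkbp5* the 1 member with an E-box, and 3 members, *Mt1*, *Mt2* and *Hsd11b1*, held the metal response element. The windows below, 5′ to 3′, were chosen because they hold a match, and are shown without bases that GENCODE vM21 places in an exon. *Sgk1*, *Tsc22d3* and *Per1* have further windows that are not shown, some of them without a match. The windows of *Klf9*, *Errfi1* and *Cyp11a1* held none of the 5 motifs and are not shown. Capitals mark the matches, which are the full response element, a half-site and an E-box that overlap in *Sgk1*, the half-site in *Tsc22d3*, the E-box in *Fkbp5*, the metal response element in *Mt1*, and the E-box and the D-box in *Per1*.
Sgk1 (chr10:21993640-21993889, plus strand): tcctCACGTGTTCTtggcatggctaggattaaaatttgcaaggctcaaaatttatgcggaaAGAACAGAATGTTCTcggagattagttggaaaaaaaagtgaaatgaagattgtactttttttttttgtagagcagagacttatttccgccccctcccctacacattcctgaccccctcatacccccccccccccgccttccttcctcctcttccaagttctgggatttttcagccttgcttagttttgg
Tsc22d3 (chrX:140600660-140600772, minus strand): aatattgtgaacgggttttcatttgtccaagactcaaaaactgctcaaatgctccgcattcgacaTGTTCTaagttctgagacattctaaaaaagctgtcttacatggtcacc
Fkbp5 (chr17:28486150-28486399, minus strand): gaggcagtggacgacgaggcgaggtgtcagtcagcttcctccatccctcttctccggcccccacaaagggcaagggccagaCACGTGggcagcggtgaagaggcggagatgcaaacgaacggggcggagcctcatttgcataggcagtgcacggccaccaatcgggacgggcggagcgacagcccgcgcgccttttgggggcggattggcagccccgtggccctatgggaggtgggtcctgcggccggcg
Mt1 (chr8:94178839-94179081, plus strand): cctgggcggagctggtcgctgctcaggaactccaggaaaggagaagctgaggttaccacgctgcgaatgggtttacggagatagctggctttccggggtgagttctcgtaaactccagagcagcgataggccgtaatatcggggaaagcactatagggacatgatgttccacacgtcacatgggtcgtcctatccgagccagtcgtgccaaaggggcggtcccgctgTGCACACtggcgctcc
Per1 (chr11:69098699-69098947, plus strand): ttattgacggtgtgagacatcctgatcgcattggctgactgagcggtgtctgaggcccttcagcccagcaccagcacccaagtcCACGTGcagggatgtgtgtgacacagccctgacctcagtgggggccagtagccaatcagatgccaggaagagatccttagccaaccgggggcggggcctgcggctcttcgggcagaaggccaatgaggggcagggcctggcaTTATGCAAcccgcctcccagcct

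Each mouse gave between 3144997 and 4785844 counted reads, with medians of 3775926 in control and 3891600 in Bmal1IEC-/- mice. *Arntl*, the gene for BMAL1, had normalized counts (read counts divided by the size factor of the library) of 258 ± 17.9 (SD, n = 4) at CT1 and 26.2 ± 8.74 at CT9 in control mice, against 176 ± 6.74 (n = 2) and 113 ± 30.8 (n = 4) in Bmal1IEC-/- mice. Its rhythm differed between the genotypes (edgeR quasi-likelihood test, adjusted p = 4.07e-13). The count covers every exon of the gene and every cell type of the colon, so it does not by itself check the deletion. Bmal1IEC-/- mice SV384 and SV385 at CT1 were left out of the tests. SV385 stood apart in its markers. Its summed normalized count was 602 for 4 fibroblast genes, against 1594 to 2884 in the 46 mice tested, and 33536 for 5 epithelial genes. In SV384 these sums were 2573 and 24703, the latter above every mouse tested. Of the markers of the colon's cell types, those of the epithelium summed to 16582 to 23484 in control and 18406 to 24143 in Bmal1IEC-/- mice, and the ranges of smooth muscle (10339.5 to 15492 and 9209 to 15030.1), fibroblasts (1984 to 2884 and 1594 to 2829.9), immune cells (169 to 252 and 137 to 233), endothelium (200.4 to 339.8 and 193 to 312), neurons and glia (50.2 to 104 and 47.1 to 83.3) and adipocytes (0 to 1018 and 0.929 to 540.01) overlapped too when all times were pooled. In these whole-tissue samples, fewer cells of a type and less RNA per cell cannot be told apart.

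The members covered a wide range of levels. Per kb of exon, a scale that allows genes to be compared, the control mice had 307 ± 118 normalized counts of *Mt1* (SD, n = 24), 116 ± 74.3 of *Fkbp5*, 102 ± 17.1 of *Errfi1*, 81.4 ± 7.98 of *Nr3c1*, 68.5 ± 13.1 of *Klf9* and 40.8 ± 21.9 of *Tsc22d3*. A lower set followed, with 13.5 ± 3.75 of *Hsd11b1*, 6.36 ± 6.79 of *Zbtb16*, 5.68 ± 3.64 of *Mt2* and 0.0704 ± 0.135 of *Cyp11a1*. Among neighbours in this order, only *Tsc22d3* and *Hsd11b1*, and *Mt2* and *Cyp11a1*, lay further apart than their SDs in control mice. Among Bmal1IEC-/- mice the gaps beyond the SD were those of *Mt1* to *Fkbp5*, *Nr3c1* to *Klf9* and *Tsc22d3* to *Hsd11b1*. *Mt2* and *Cyp11a1* fell under the minimum count for a test, so 8 of the 10 members were tested.

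**Figure D1:**
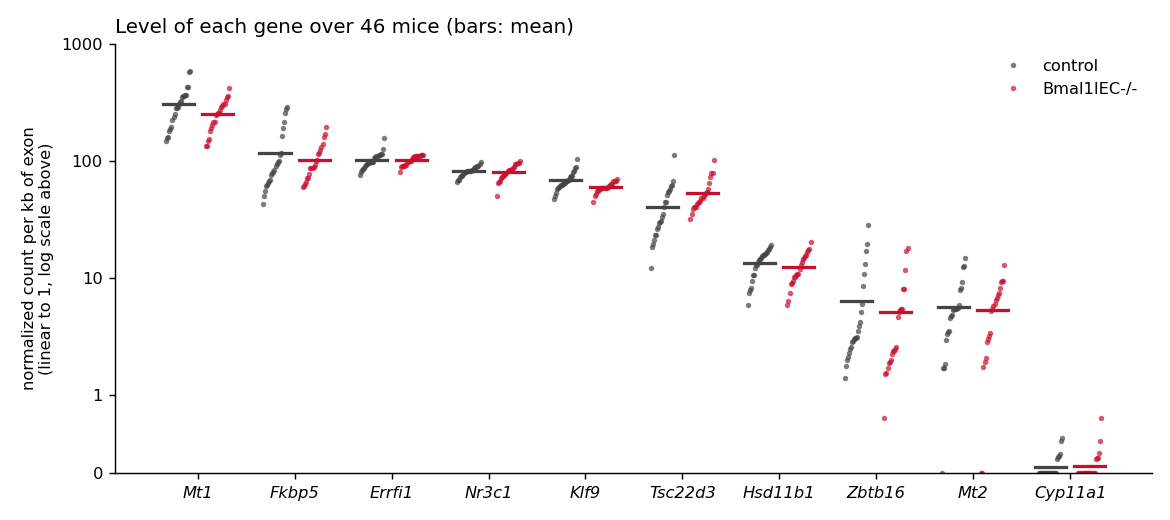
Normalized count per kb of exon (vertical axis, linear up to 1 and logarithmic above) of each of the 10 genes in the 24 control and 22 Bmal1IEC-/- mice tested, 1 point per mouse, with the mean as a bar. The control means run from 307 for *Mt1* to 0.0704 for *Cyp11a1*, and the points of the genotypes overlap for every gene.

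Over all circadian times, 2 of the 8 members tested differed between the genotypes. *Tsc22d3* was 1.31-fold higher in Bmal1IEC-/- mice and *Klf9* was 1.15-fold lower, while over all 15073 genes tested 1590 genes or 10.5% passed the same threshold, 728 (4.83%) of them higher and 862 (5.72%) lower. At an unadjusted p under 0.05 the test called 4 of the 8 members and 3539 of all 15073 genes. No member passed a fold change of 1.5 beside the threshold, which 1.39% of all genes did. DESeq2 called 2 members after adjustment. It was run without the filter on low counts, and its share of all genes is not given here. The median log2 fold change was -0.136 over the 8 members and -0.00048 over all genes tested.

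A rhythm was tested in each genotype with JTK_cycle at a period of 24 h. In control mice 6 of the 10 members were rhythmic (*Fkbp5*, *Tsc22d3*, *Klf9*, *Mt1*, *Hsd11b1* and *Nr3c1*), against 24.0% of the 32527 genes with a count and 48.8% of the genes that passed the filter. In Bmal1IEC-/- mice 5 of the 10 were called (*Fkbp5*, *Tsc22d3*, *Zbtb16*, *Hsd11b1* and *Mt2*, the last on very low counts), against 14.2% of the genes with a count and 28.5% of those that passed the filter. *Fkbp5*, *Tsc22d3* and *Hsd11b1* were called in both genotypes, as were 22.7% of the genes that passed the filter. With Benjamini-Hochberg adjustment over all genes, the Bmal1IEC-/- calls of *Fkbp5* and *Hsd11b1* were lost and those of *Tsc22d3* and *Zbtb16* remained, so that *Tsc22d3* alone was called in both genotypes. Put the other way, 3 of the 6 members rhythmic in control mice were called in Bmal1IEC-/- mice too, beside 46.5% of all genes rhythmic in control mice. The amplitude of the fitted cosine was smaller in Bmal1IEC-/- mice in all 6, and in 85.7% of all genes rhythmic in control mice. Genes picked by their rhythm in control mice tend to have the larger amplitude there by the choice alone. These shares are thus no test of a change. A call in one genotype and not in the other is no test of a difference, and the test of the change of rhythm itself called 1 of the 8 members tested, *Tsc22d3*, and 0.935% of all genes.

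**Figure D2:**
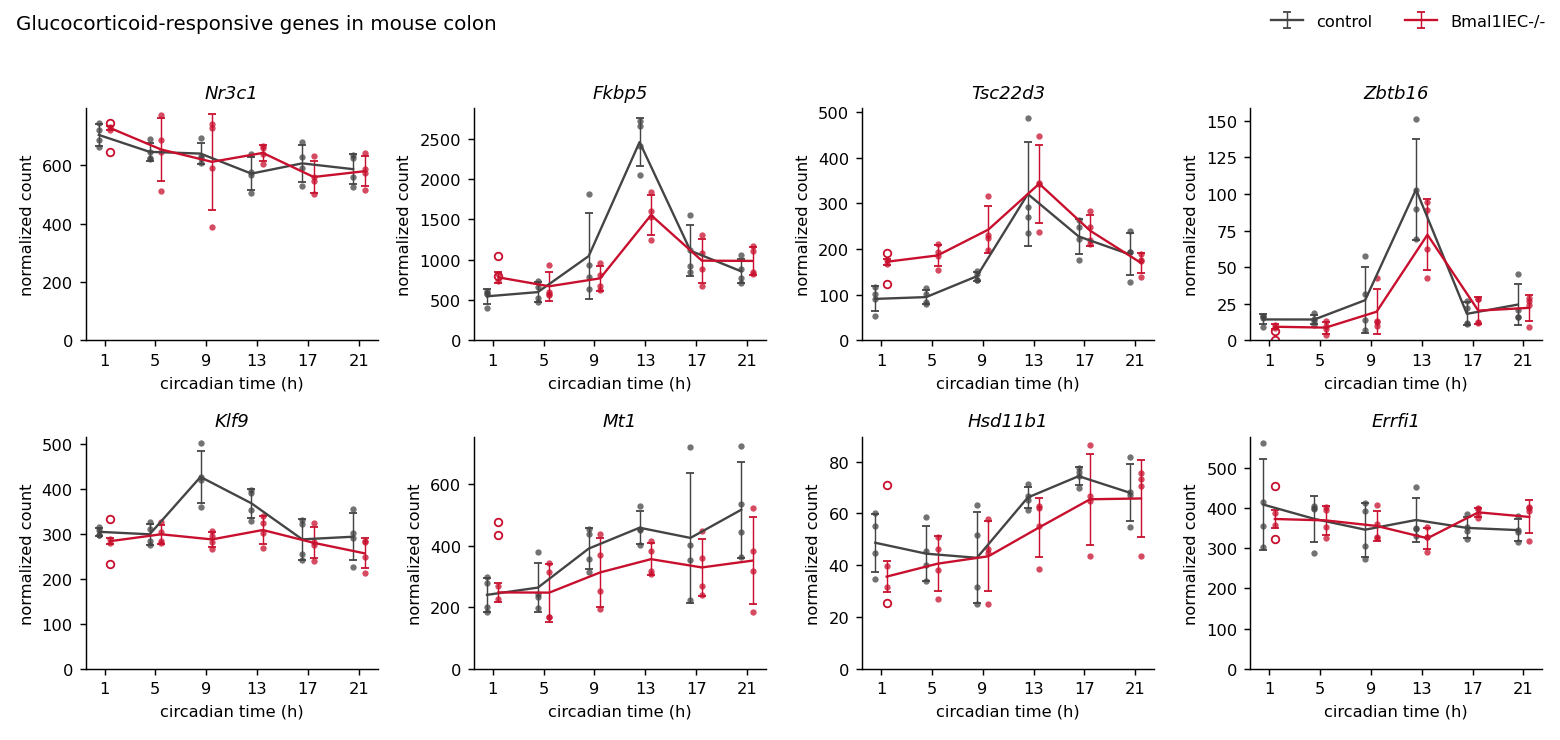
Normalized count (vertical axis) of the members against circadian time in hours (horizontal axis) in control and Bmal1IEC-/- mice, with 1 point per mouse, the mean of the mice tested as a line and its SD as a bar. Open circles are the Bmal1IEC-/- mice SV384 and SV385, which were outside the tests. *Fkbp5* reached 2458 at CT13 in control and 1553 in Bmal1IEC-/- mice, and *Tsc22d3* lay higher in Bmal1IEC-/- mice at CT5 and CT9.

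*Nr3c1*, the gene of the receptor itself, varied little. In control mice its normalized count was highest at CT1, with 664, 686, 720.4 and 746, and lowest at CT13, with 504, 567, 576 and 639. In the other genotype it was 722 and 733 at CT1 in the mice tested, and 606, 639, 658 and 667 at CT13. The lowest mouse of all was a Bmal1IEC-/- mouse at CT9 with 388, next to 589.7, 727 and 742 in the others of its group, and the genotypes overlapped at every time. The log2 fold change between the genotypes was -0.00068 with an SE of 0.048 (adjusted p = 0.995, edgeR quasi-likelihood test with Benjamini-Hochberg adjustment). JTK_cycle called a rhythm in control mice (exact p = 0.0358) with a peak at 2 h, where the fitted cosine had an amplitude of 0.115 ± 0.035 on the log2 scale, and did not call one in Bmal1IEC-/- mice (exact p = 0.0798, amplitude 0.091 ± 0.069). The amplitudes differed by -0.024, with a 95% interval from -0.182 to 0.134, and the adjusted p of the change of rhythm was 0.968 (edgeR). The control call was lost in 11 of the 24 runs that left out 1 control mouse.

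*Fkbp5* (GRCm38 chr17:28399094-28517527, minus strand) codes for a co-chaperone that lowers the receptor's affinity for its hormone and is one of the most widely used reporters of glucocorticoid action. In control mice it was highest at the start of the active phase. Its normalized counts were 406, 573, 589 and 618 at CT1, 471, 525, 657 and 742 at CT5, and 639, 789, 939 and 1815 at CT9. At CT13 they were 2053, 2410.0, 2655 and 2713, and then 853, 923, 1118 and 1550.1 at CT17 and 715, 769, 883 and 1055 at CT21. All 4 control mice at CT13 thus lay above every other control mouse, of which the highest was 1 mouse at CT9.

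In Bmal1IEC-/- mice *Fkbp5* was also highest at CT13. The counts there were 1243, 1529, 1603 and 1837, all below the lowest control mouse of that time. At the other times they were 735 and 828 in the 2 mice tested at CT1 (798 and 1040.5 in SV384 and SV385), 562, 579, 601 and 941 at CT5, and 624, 671, 816 and 965 at CT9. At CT17 they were 678, 880.5, 1084 and 1311 and at CT21 823, 845, 1104 and 1168, which overlapped the control range, whereas both tested mice at CT1 lay above the control mice.

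At CT13 the control mean of *Fkbp5* was 2458 ± 300.1 (SD, n = 4) and that of Bmal1IEC-/- mice 1553 ± 245, a 1.58-fold difference. On the log2 scale it was -0.66 with an SE of 0.22 (adjusted p = 0.0717, edgeR quasi-likelihood test), which missed the threshold that 4.43% of all genes passed at that time. JTK_cycle called a rhythm in both genotypes, with an exact p of 6.22e-07 and a peak at 14 h in control and an exact p of 0.00718 and a peak at 16 h in Bmal1IEC-/- mice. The amplitude was 0.926 ± 0.133 (SE) in control and 0.473 ± 0.119 in Bmal1IEC-/- mice, or 3.61-fold and 1.93-fold from trough to peak. The difference in amplitude was -0.453 with a 95% interval from -0.814 to -0.092, so the fitted cosine was flatter in Bmal1IEC-/- mice, but the change of rhythm did not pass the threshold over all genes (adjusted p = 0.213, edgeR quasi-likelihood test, on an unadjusted value of 0.00577). With all 48 mice in the fit that adjusted p was 0.0493. Averaged over the day, the log2 fold change was -0.11 with an SE of 0.11 (adjusted p = 0.589, edgeR).

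The list held 6 chaperones and co-chaperones of the receptor (*Hsp90aa1*, *Hsp90ab1*, *Hspa8*, *Stip1*, *Ptges3* and *Fkbp4*), and 6 were tested. All 6 were rhythmic in both genotypes, beside 22.7% of the genes that passed the filter. None differed between the genotypes over the day by edgeR or DESeq2, also without adjustment by edgeR, and their median log2 fold change was -0.00594. For the change of rhythm, edgeR called 0 after adjustment, and DESeq2 0. At an unadjusted p under 0.05 edgeR called 5 of them, and 1551 of all 15073 genes tested. *Fkbp4*, the co-chaperone that helps carry the receptor to the nucleus, had 1326 ± 286 normalized counts (SD, n = 4) in control and 1006 ± 154 in Bmal1IEC-/- mice at CT13. Its exact JTK_cycle p was 2.45e-05 in control and 5.3e-05 in Bmal1IEC-/- mice, with a peak at 16 h in both, and its amplitude of 0.571 in control and 0.346 in Bmal1IEC-/- mice differed by -0.225 (95% interval -0.412 to -0.038), with an adjusted p for the change of rhythm of 0.354 (edgeR). The 4 others below, chosen here after their values were seen, were lower in Bmal1IEC-/- mice at CT13 (edgeR, Benjamini-Hochberg adjusted): *Hsp90aa1* by a log2 fold change of -0.82 (adjusted p = 0.0151), *Stip1* of -0.74 (adjusted p = 0.0067), *Hspa8* of -0.65 (adjusted p = 0.0258) and *Hsp90ab1* of -0.51 (adjusted p = 0.0098). *Fkbp4* (-0.40, adjusted p = 0.0693, edgeR) and *Ptges3* (-0.22, adjusted p = 0.308, edgeR) were not called there, where 4.43% of all genes were. At CT1, on 2 Bmal1IEC-/- mice, all 6 went the other way, from 0.27 for *Ptges3* to 0.68 for *Hspa8*, and none was called.

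*Tsc22d3* (chrX:140539528-140600659, minus strand) codes for GILZ, a leucine zipper protein through which glucocorticoids dampen inflammatory signalling, and it was the 1 member called both in the difference over the day and in the change of rhythm. In control mice its normalized counts were low in the rest phase, with 53.2, 91.5, 101 and 118 at CT1, 80.0, 83.9, 101 and 114 at CT5 and 132, 133, 144 and 152 at CT9. They were 235, 269, 291 and 486 at CT13, 175, 223, 249 and 263 at CT17 and 127, 193, 194 and 238 at CT21. Every control mouse at CT13 was thus above every control mouse of the rest phase.

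The rest-phase counts of *Tsc22d3* were higher in Bmal1IEC-/- mice, with 168 and 176 at CT1 in the mice tested (124 and 191 in SV384 and SV385), 154, 185, 194 and 210.4 at CT5 and 199, 225, 230.1 and 316 at CT9. All mice tested at these 3 times lay above all control mice of the same time. In the active phase the counts were 237, 343, 344 and 446 at CT13, 209.8, 219, 248 and 284 at CT17 and 139, 174, 175 and 190.1 at CT21, and there the genotypes overlapped.

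The mean of *Tsc22d3* was 94.7 ± 15.7 (SD, n = 4) in control and 186 ± 23.6 in Bmal1IEC-/- mice at CT5, a 1.96-fold difference, and 140.4 ± 9.75 and 242 ± 51 at CT9, a 1.73-fold difference. The log2 fold change was 0.96 with an SE of 0.21 at CT5 (adjusted p = 0.0151, edgeR quasi-likelihood test) and 0.78 with an SE of 0.20 at CT9 (adjusted p = 0.025). At CT1 it was 0.92 with an SE of 0.26 on 2 Bmal1IEC-/- mice (adjusted p = 0.0572), and at CT13, CT17 and CT21 it was 0.10, 0.07 and -0.15, none of them near the threshold. Over the whole day the log2 fold change was 0.39 with an SE of 0.10 (adjusted p = 0.0077).

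*Tsc22d3* was rhythmic in both genotypes, with an exact JTK_cycle p of 1.40e-06 and a peak at 14 h in control and an exact p of 7.63e-06 and a peak at 12 h in Bmal1IEC-/- mice. Its amplitude was 0.879 ± 0.107 (SE) in control and 0.498 ± 0.081 in Bmal1IEC-/- mice, a difference of -0.380 with a 95% interval from -0.652 to -0.108. The peak of the fitted cosine came at 15.1 h in control and 12.7 h in Bmal1IEC-/- mice, a shift of -2.45 h (earlier) with a 95% interval from -3.93 to -0.967 h. The change of rhythm had an adjusted p of 0.0311 (edgeR), and it missed the threshold when any one of 4 mice was left out, with adjusted p from 0.0539 to 0.0574, and with time as a factor (0.0665). The difference over the day was not called without CT5 (adjusted p = 0.0922), without CT9 (0.0848) or with circadian time left out of the model (0.207).

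*Zbtb16* (chr9:48654297-48836222, minus strand), which codes for PLZF, a transcriptional repressor that glucocorticoids induce in many tissues, showed a narrow peak at CT13 in both genotypes. The normalized counts at CT13 were 69.3, 89.4, 102 and 151 in control and 42.7, 62.4, 89.0 and 94.4 in Bmal1IEC-/- mice. At the other times control mice ranged from 7.38 to 57.3 and the Bmal1IEC-/- mice tested from 3.72 to 42.7. The highest mice away from CT13 were at CT9 and CT21, and all 4 control mice at CT13 lay above them. These are low counts, 1449 reads over all 48 mice.

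JTK_cycle called the rhythm of *Zbtb16* in Bmal1IEC-/- mice (exact p = 0.00161) and not in control mice (exact p = 0.0583), with a peak at 14 h in both. The control rhythm was called in 6 of 24 runs without 1 control mouse, and by the F test of the cosine in edgeR (adjusted p = 6.5e-05). The amplitude was 0.926 ± 0.265 (SE) in control and 1.12 ± 0.26 in Bmal1IEC-/- mice, and their difference of 0.196 had a 95% interval from -0.555 to 0.947. The adjusted p of the change of rhythm was 0.949 (edgeR). *Zbtb16* and *Errfi1* were the members tested whose fitted amplitude was larger in Bmal1IEC-/- mice. Over the day its log2 fold change was -0.38 with an SE of 0.19 (adjusted p = 0.213, edgeR, on an unadjusted value of 0.04995).

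*Klf9* (chr19:23141226-23168134, plus strand) codes for a Krüppel-like factor that is induced by glucocorticoids and represses clock genes, and it differed at 1 time. At CT9 the control mice had 359, 419.6, 426 and 501 normalized counts and the Bmal1IEC-/- mice 266, 283, 295 and 307. The lowest control mouse was thus above the highest Bmal1IEC-/- mouse, and the means of 427 ± 58.4 (SD, n = 4) and 288 ± 17.2 lay 1.48-fold apart. At CT13 the counts were 329, 354, 391 and 398 in control and 269, 301, 325 and 339 in Bmal1IEC-/- mice, which overlapped in 1 mouse of each group. At the remaining times the control mice ranged from 227 to 355 and the Bmal1IEC-/- mice tested from 213 to 326.

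The log2 fold change of *Klf9* was -0.57 with an SE of 0.11 at CT9 (adjusted p = 8.49e-04, edgeR quasi-likelihood test), and over the day -0.21 with an SE of 0.05 (adjusted p = 0.00585). Without CT9 the adjusted p over the day was 0.15 and without CT13 it was 0.0522. JTK_cycle called a rhythm in control mice with a peak at 10 h (exact p = 0.00189) and none in Bmal1IEC-/- mice (exact p = 0.613). The amplitude of 0.249 ± 0.060 (SE) in control and 0.103 ± 0.041 in Bmal1IEC-/- mice differed by -0.146, with a 95% interval from -0.293 to 0.0021, and the change of rhythm was not called (adjusted p = 0.654, edgeR). A flatter rhythm and an equal one were thus both within the interval.

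Across the 6 times, *Tsc22d3* at CT5 and CT9 and *Klf9* at CT9 were the only calls among the 8 members tested. The share of all genes called was 1.21% at CT1, 0.445% at CT5, 1.78% at CT9, 4.43% at CT13, 1.05% at CT17 and 0.378% at CT21. At an unadjusted p under 0.05 the same test called 1 member at CT1, 1 at CT5, 3 at CT9, 2 at CT13 and none at CT17 or CT21. The shares above are of adjusted calls and cannot be set beside these counts. The share of all genes without adjustment is not given here for single times. CT1 rests on 2 Bmal1IEC-/- mice, and with all 48 mice *Tsc22d3* and *Fkbp5* were called there too.

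**Figure D3:**
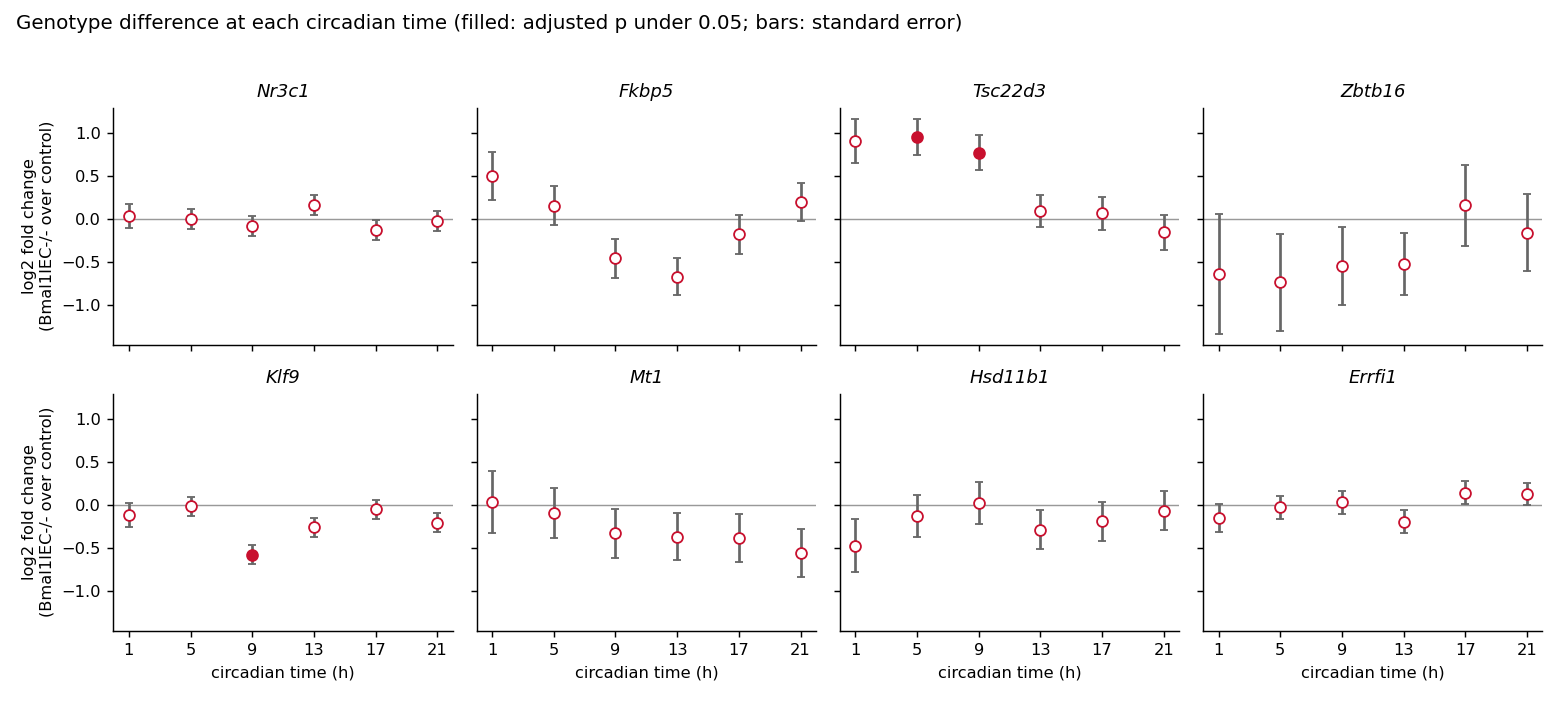
Log2 fold change of Bmal1IEC-/- over control mice (vertical axis) at each circadian time in hours (horizontal axis) for the 8 members tested, with the standard error as a bar and filled points where the adjusted p was under 0.05. The filled points are *Tsc22d3* at CT5 (0.96) and CT9 (0.78) and *Klf9* at CT9 (-0.57), and *Fkbp5* runs from 0.50 at CT1 to -0.66 at CT13.

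*Sgk1* and *Per1*, glucocorticoid-induced genes that are not among the 10, are shown for comparison. *Sgk1* codes for a kinase that raises sodium uptake in the distal colon. In control mice it had 248 to 631 normalized counts at CT1, CT5 and CT9 and 705 to 1565 at CT13, CT17 and CT21, with no overlap between the phases. In the Bmal1IEC-/- mice tested it had 531 to 1200.1 in the rest phase and 466 to 1834 in the active phase, which overlapped. Its mean was 341 ± 75.6 (SD, n = 4) in control and 868 ± 63.9 (n = 2) in Bmal1IEC-/- mice at CT1, and 1246 ± 245 and 1452 ± 351 (n = 4 each) at CT13.

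*Sgk1* was 1.62-fold higher in Bmal1IEC-/- mice over the day, with a log2 fold change of 0.70 and an SE of 0.13 (adjusted p = 1.29e-04, edgeR quasi-likelihood test), and was called at CT1 (adjusted p = 0.0262), CT5 (0.0267) and CT9 (0.00284). Like *Tsc22d3*, it was thus higher at CT5 and CT9 and not called at CT13, CT17 or CT21. It was rhythmic in both genotypes with a peak at 16 h (exact JTK_cycle p = 0.0015 in control and 0.0045 in Bmal1IEC-/- mice). The amplitude was 1.06 ± 0.139 (SE) in control and 0.477 ± 0.137 in Bmal1IEC-/- mice, a difference of -0.587 (95% interval -0.981 to -0.192), with an adjusted p for the change of rhythm of 0.121 (edgeR), which was 0.00922 with no filter on low counts. The difference over the day was not called with circadian time left out of the model (adjusted p = 0.0644, edgeR).

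*Per1* was lower over the day. Its highest means were 438 ± 62.4 (SD, n = 4) at CT13 in control and 218 ± 66.5 in Bmal1IEC-/- mice, and over the day its level was 1.51-fold lower in Bmal1IEC-/- mice (log2 fold change -0.60, SE 0.16, adjusted p = 0.00934, edgeR quasi-likelihood test). This call was lost with DESeq2 (adjusted p = 0.0916), without CT9 (0.0986), without CT13 (0.135) and with circadian time left out of the model (0.214). At CT1 the order was the reverse, with 58.7 and 65.2 counts in the Bmal1IEC-/- mice tested and 13.3, 20.9, 38.1 and 40.3 in control mice (log2 fold change 1.12, adjusted p = 0.300, edgeR). At CT13 the 4 control mice had 345, 461, 472 and 474 counts and the Bmal1IEC-/- mice 119.9, 238, 245 and 268 (log2 fold change -1.01, adjusted p = 0.0407, edgeR). Its rhythm peaked at 12 h in both genotypes (exact JTK_cycle p = 1.06e-07 and 5.3e-05), with an amplitude of 1.70 ± 0.234 in control and 0.919 ± 0.175 in Bmal1IEC-/- mice, a difference of -0.784 (95% interval -1.38 to -0.192), and the change of rhythm was not called (adjusted p = 0.553, edgeR).

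The list of other glucocorticoid-induced genes held 18 genes, all 18 tested. Over the day 1 was higher (*Sgk1*) and 3 were lower in Bmal1IEC-/- mice, beside 4.83% and 5.72% of all genes tested. The lower ones were *Per1* and, named after their values were seen, *Irs2*, an adaptor of the insulin receptor (log2 fold change -0.44, adjusted p = 0.00243, edgeR), and *Rgs2*, a regulator of G-protein signalling (-0.22, adjusted p = 0.0101). DESeq2, for which the share of all genes is not given here, called 3 of the 18. The median log2 fold change of the list was -0.085. A rhythm was called in 11 of the 18 in control mice, in 7 in Bmal1IEC-/- mice and in 6 in both. Of the genes that passed the filter, the shares were 48.8%, 28.5% and 22.7%. In 10 of the 11 the amplitude was smaller in Bmal1IEC-/- mice, beside 85.7% of all genes rhythmic in control mice. The choice by control rhythm makes this no test of a change. *Dusp1*, a phosphatase that switches off MAP kinases, was not called over the day (log2 fold change -0.11, adjusted p = 0.560, edgeR) nor as rhythmic in control mice (exact JTK_cycle p of 1), while in Bmal1IEC-/- mice it was called rhythmic (exact JTK_cycle p = 0.0466). No gene of the list passed the test of the change of rhythm after adjustment by edgeR on the filtered genes or by DESeq2. Without adjustment 3 passed by edgeR, as did 1551 of the 15073 genes tested. With no filter on low counts, *Sgk1* passed after adjustment (adjusted p = 0.00922, edgeR).

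**Figure D4:**
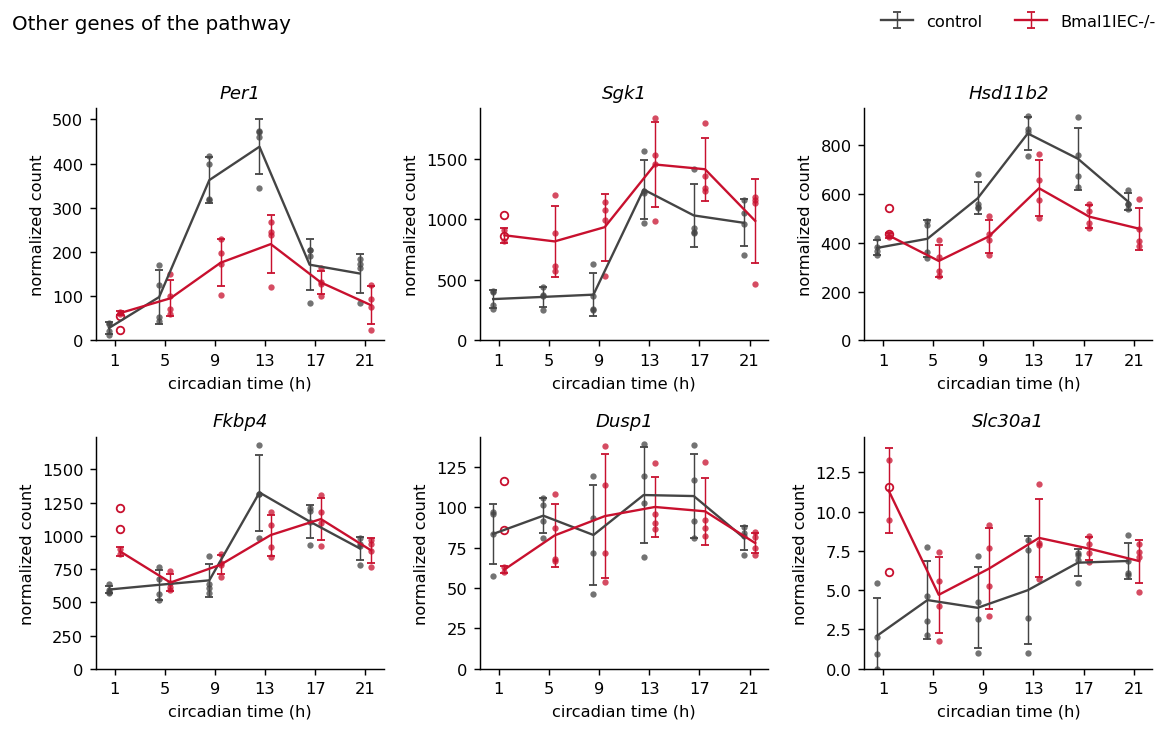
Normalized count (vertical axis) of 6 other genes of glucocorticoid action and metal response against circadian time in hours (horizontal axis) in control and Bmal1IEC-/- mice, with 1 point per mouse, the mean as a line and the SD as a bar. Open circles are the Bmal1IEC-/- mice outside the tests. *Sgk1* lay at 868 in Bmal1IEC-/- and 341 in control mice at CT1, and *Per1* at 218 and 438 at CT13.

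*Mt1* (chr8:94179082-94180327) and *Mt2* (chr8:94172664-94173568), neighbours on the plus strand, code for metallothioneins, small proteins that bind zinc and copper and are induced by metals as well as by glucocorticoids. *Mt1* had normalized counts of 185, 201, 278 and 297 at CT1 and 198, 235, 243 and 380.2 at CT5 in control mice. At CT13 and CT21 the control counts were 402, 450.3, 453 and 529.9, and 362, 445, 536 and 726. Between them, control mice ranged from 315 to 453 at CT9 and from 225 to 721 at CT17. In control mice the counts of CT13 thus lay above all those of CT1 and CT5.

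*Mt1* in Bmal1IEC-/- mice ranged from 167 to 343 at CT1 and CT5 in the mice tested, with 476 and 435 in SV384 and SV385. It ranged from 193 to 438 at CT9, 308 to 417 at CT13, 240.2 to 448 at CT17 and 183 to 522 at CT21, so that all 6 times overlapped the control mice. The log2 fold change over the day was -0.30 with an SE of 0.12 (adjusted p = 0.0855, edgeR quasi-likelihood test, on an unadjusted value of 0.0119). It was called lower with no filter on low counts (adjusted p = 0.00535) and without the control mouse SV453 at CT17 (0.0454). JTK_cycle called a rhythm in control mice with a peak at 16 h (exact p = 0.0358) and not in Bmal1IEC-/- mice (exact p = 0.543), and the control call was lost in 9 of 24 runs without 1 control mouse. The amplitude of 0.453 ± 0.133 (SE) in control and 0.278 ± 0.140 in Bmal1IEC-/- mice differed by -0.175, with a 95% interval from -0.565 to 0.215 and an adjusted p for the change of rhythm of 0.884 (edgeR).

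*Mt2* was near the limit of the depth. It had 158 reads over all 48 mice against 17389 of *Mt1*, was at 0 in 3 mice and reached 10 reads at most, and 73.5% of its exon bases are shared with the gene model *Gm45774* on the opposite strand. The counting left out reads that overlap several features, and how many this cost *Mt2* was not tested. JTK_cycle gave an exact p of 0.610 in control and 0.0466 in Bmal1IEC-/- mice, and the latter call was lost in 14 of 22 runs without 1 mouse.

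Of the 6 genes on the metal-response list, 5 were tested and none differed between the genotypes over the day after adjustment by edgeR or DESeq2. Without adjustment 2 did by edgeR, as did 3539 of the 15073 genes tested. The median log2 fold change of the 5 was 0.018. A rhythm was called in 3 of the 5 in control mice, in 3 in Bmal1IEC-/- mice and in 3 in both. Of the genes that passed the filter, the shares were 48.8%, 28.5% and 22.7%. *Slc30a1*, a zinc exporter that metals induce together with the metallothioneins, had a log2 fold change of 0.54 with an SE of 0.21 (adjusted p = 0.0841, edgeR). At CT1 it was higher in Bmal1IEC-/- mice, with 9.43 and 13.2 normalized counts in the mice tested against 0, 0.953, 2.05 and 5.45 in control mice (log2 fold change 2.36, adjusted p = 0.0312, edgeR), on these low counts.

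*Hsd11b1* (chr1:193221634-193264075, minus strand), whose enzyme regenerates active corticosterone from its inactive form, was rhythmic in both genotypes. In control mice its normalized counts were 33.7, 40.1, 45.3 and 58.7 at CT5 and 69.7, 74.3, 75.9 and 77.7 at CT17. In Bmal1IEC-/- mice they were 26.9, 38.1, 46.4 and 51.0 at CT5 and 43.7, 64.8, 66.8 and 86.5 at CT17. The groups of CT17 lay higher in both genotypes, with 1 Bmal1IEC-/- mouse at CT17 within the range of CT5. JTK_cycle called the rhythm with a peak at 18 h in both genotypes (exact p = 4.6e-05 in control and 0.0261 in Bmal1IEC-/- mice), although the Bmal1IEC-/- call was lost in 5 of 22 runs without 1 mouse.

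The cosine of *Hsd11b1* peaked at 17.6 h in control and 17.5 h in Bmal1IEC-/- mice, with amplitudes of 0.448 ± 0.0905 (SE) and 0.395 ± 0.111. Their difference was -0.052, with a 95% interval from -0.342 to 0.237, and the adjusted p of the change of rhythm was 0.992 (edgeR). Over the day the log2 fold change was -0.16 with an SE of 0.10 (adjusted p = 0.312, edgeR).

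*Cyp11a1* (chr9:58006411-58027023, plus strand), the gene of the enzyme that starts steroid synthesis by cutting the side chain of cholesterol, was at the edge of detection. It had 18 reads over all 48 mice, was at 0 in 35 of them and reached 3 reads at most, and a count of 0 allows up to 3 reads in a mouse. JTK_cycle called neither genotype rhythmic. Its null distribution assumes no ties, and the mice at 0 are tied, so it cannot decide on a rhythm here. No difference between the genotypes was detectable at this depth. Of the 8 other genes of steroid handling on the list, *Cyp11b1* and *Cyp21a1*, which code for the last steps of corticosterone synthesis, had 0 reads in every mouse and *Hsd3b1* had 12 in all, and 5 were tested.

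None of those 5 was higher and 2 were lower in Bmal1IEC-/- mice over the day by edgeR, beside 4.83% and 5.72% of all genes tested. DESeq2, for which the share of all genes is not given here, called 2 too. Without adjustment 3 passed by edgeR, as did 3539 of the 15073 genes tested. *Hsd11b2*, whose enzyme inactivates corticosterone and so shields the mineralocorticoid receptor of colon epithelium, had 849 ± 68.7 normalized counts (SD, n = 4) in control and 624 ± 114 in Bmal1IEC-/- mice at CT13. Its log2 fold change was -0.36 over the day with an SE of 0.06 (adjusted p = 3.9e-05, edgeR), and it was called at CT13 (adjusted p = 0.0463) and CT17 (adjusted p = 0.0209). It was rhythmic in both genotypes with a peak at 14 h (exact JTK_cycle p = 1.68e-07 and 0.0027), and its amplitude differed by -0.199 (95% interval -0.393 to -0.005), while the change of rhythm was not called (adjusted p = 0.515, edgeR). The difference over the day was lost with circadian time left out of the model (adjusted p = 0.0654, edgeR). The other gene called, named after its values were seen, was *Nr3c2*, the mineralocorticoid receptor, with a log2 fold change of -0.17 (adjusted p = 0.00705, edgeR).

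*Errfi1* (chr4:150853919-150868892, plus strand), the gene of an inhibitor of the EGF receptor that glucocorticoids induce, showed neither a rhythm nor a difference. Its normalized counts ranged from 272 to 562 in control and from 289.8 to 407 in the Bmal1IEC-/- mice tested, and the means of the 12 groups lay between 324 and 408. The log2 fold change over the day was 0.0020 with an SE of 0.056 (adjusted p = 0.990, edgeR quasi-likelihood test). The exact JTK_cycle p was 1 in control and 0.543 in Bmal1IEC-/- mice, and the amplitudes of 0.054 and 0.084 differed by 0.029 (95% interval -0.131 to 0.190).

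Set side by side, the members fell into a graded series of amplitudes. *Fkbp5*, *Zbtb16* and *Tsc22d3* had control amplitudes of 0.879 to 0.926 on the log2 scale, *Mt1* and *Hsd11b1* of 0.453 and 0.448, *Klf9* of 0.249 and *Nr3c1* and *Errfi1* of 0.115 and 0.054. The median over the 8 members was 0.451 in control and 0.337 in Bmal1IEC-/- mice, and over all genes tested 0.194 and 0.154. Among the members the interval of the amplitude difference lay wholly below 0 for *Fkbp5* and *Tsc22d3* and included 0 for the others tested. These intervals are not adjusted for the number of genes. The share of all genes with such an interval is not given here, so this count cannot be weighed against it. The fitted peaks of *Fkbp5* and *Zbtb16* lay at 13.8 and 13.4 h in control and 15.2 and 14.3 h in Bmal1IEC-/- mice. For these genes the high level thus stayed near the start of the active phase in both genotypes. The fitted peak of *Tsc22d3* came earlier in Bmal1IEC-/- mice, at 12.7 h against 15.1 h in control mice (shift of -2.45 h, 95% interval -3.93 to -0.967 h).

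**Figure D5:**
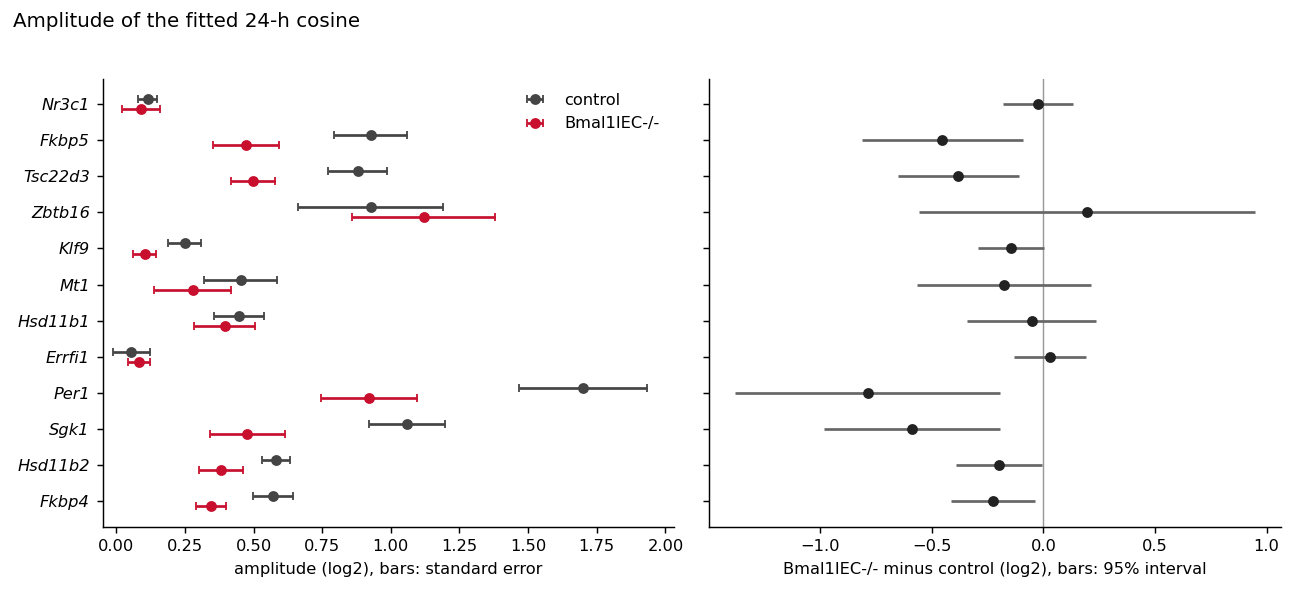
Left, amplitude of the fitted 24-h cosine on the log2 scale (horizontal axis) with its standard error for the 8 members tested and 4 other genes in control and Bmal1IEC-/- mice. Right, the difference of the amplitudes, Bmal1IEC-/- minus control, with its 95% interval. This interval lies below 0 for *Fkbp5* (-0.453), *Tsc22d3* (-0.380) and the 4 other genes and includes 0 for the rest. It is not adjusted for the number of genes.

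Over the 12 group means, the time courses most like each member's were, by Pearson's r of log2 CPM and as a description only, *Miga2* (0.961), *Apba3* (0.961) and *Kmt2d* (0.959) for *Fkbp5*, and *Ssh1* (0.988), *Ldha* (0.962) and *Cx3cl1* (0.955) for *Tsc22d3*. For *Klf9* they were *Slc43a1* (0.924), *Ncf1* (0.897) and *Cipc* (0.895), and for *Zbtb16* *Adamtsl2* (0.920), *Prodh* (0.906) and *Tfcp2l1* (0.906). *Hsd11b1* was most like *Rad51c* (0.969), *Sidt1* (0.962) and *Pdxk* (0.944), *Mt1* like *Map7d1* (0.956), *Adgrl1* (0.934) and *Smco4* (0.931), and *Nr3c1* like *Rb1cc1* (0.957), *Pbrm1* (0.951) and *Rbm39* (0.941). *Errfi1* reached at most 0.834, with *Zc3hav1l*, before *Ighv14-4* and *Gm4924* (0.816 each). Between members, r was 0.898 for *Fkbp5* and *Zbtb16* and 0.784 for *Fkbp5* and *Tsc22d3*, and -0.731 for *Nr3c1* and *Hsd11b1*. The 12 points share libraries and times within a group, and no test was made of these values.

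The calls on *Tsc22d3* and *Klf9* came with shifts in marker genes, which were small over the day and larger at single times. Of the epithelial markers 1 of 5 was higher and 1 lower in Bmal1IEC-/- mice (*Cdh1* and *Epcam*), and 1 of 4 was lower for smooth muscle (*Myh11*), 1 of 4 for fibroblasts (*Dcn*), 1 of 4 for immune cells (*Ptprc*) and 1 of 2 for endothelium (*Pecam1*), by edgeR at an adjusted p under 0.05. At CT1 the sums of 5 cell types stood apart between the 2 Bmal1IEC-/- mice tested and the 4 control mice. The epithelial sum was higher in Bmal1IEC-/- mice (20462 and 21573 against 16582 to 18414). The sums of fibroblasts (1594 and 1660.2 against 2510.3 to 2690.01), smooth muscle (10234 and 10319.8 against 12537 to 15492), endothelium (206 and 214 against 258 to 339.8) and neurons and glia (64.2 and 65.0 against 79.5 to 104) were lower. Of the mice left out of the tests, SV385 went the same way in these 5 sums. SV384 did so in all but that of fibroblasts, where it had 2573, within the control range. At CT5 and CT9, where *Tsc22d3* and *Klf9* were called, the ranges of the sums overlapped between the genotypes for every cell type. The immune marker *Ptprc* by itself was lower in Bmal1IEC-/- mice at CT9 (log2 fold change -0.56, adjusted p = 0.0116, edgeR). At CT5 its log2 fold change was -0.44 (adjusted p = 0.225, edgeR). The immune marker *Cd79a* went the other way at CT9 (0.87, adjusted p = 0.638, edgeR). Other markers called at single times, named after their values were seen, were lower in Bmal1IEC-/- mice (edgeR). They were *Dcn* (-0.91, adjusted p = 2.54e-04) and *Lum* (-0.83, 0.0265) at CT1, and *Krt20* (-0.45, 0.00825) and *Pdgfra* (-0.38, 0.0341) at CT13. The rhythm of *Krt20*, an epithelial marker, differed between the genotypes (adjusted p = 0.00646, edgeR). The part of these shifts in the members' differences was not tested.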

How the data were processed

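The colon of each mouse was collected as whole tissue and sequenced as a paired-end, strand-selective poly(A) library (TruSeq Stranded mRNA). The authors trimmed the reads with Trimmomatic 0.39, aligned them to mm10 with STAR 2.7.5c and counted them with featureCounts 1.4.6, leaving out reads that overlap several features. The deposited values are raw read counts per gene, and the strand setting of the counting is not given in the sources used here. Groups were taken from the sample labels, which tie each library to 1 mouse. The labels give no batch, so none could be tested.

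Tests ran on 46 mice, 24 control and 22 Bmal1IEC-/-. The size factors behind the study's own control rhythm values leave out SV384 and SV385, and this was checked against the counts. The normalized counts shown are counts divided by DESeq2 size factors over all 48 mice. Differences over the day were tested with edgeR 4.0.16 (R 4.3.3), with TMM scaling, filterByExpr (15073 genes left), quasi-likelihood F tests, circadian time as a factor and Benjamini-Hochberg adjustment over all genes tested. For the change of rhythm, a cosine and a sine of 24 h were fitted in each genotype, and their difference was tested on 2 degrees of freedom. JTK_cycle was rewritten with 12 phases in steps of 2 h, an exact null distribution and Bonferroni adjustment over phases. It was run on the 32527 genes with a count. The null distribution assumes no ties, which mice at 0 break in genes of low count. Cosines were fitted to log2 CPM with a prior count of 2. A call is an adjusted p under 0.05. The steps were tested on simulated data. Depth was 3144997 to 4785844 counts per mouse, which limits the genes of low count, while the spread between the 2 to 4 mice of a group enters every test.

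The 10 members and the gene lists were chosen with earlier results of these data known. Named are the members, *Arntl*, *Per1*, *Sgk1*, *Dusp1*, *Hsd11b2*, *Slc30a1*, *Fkbp4*, list genes called with a fold change of 1.5 or in the change of rhythm, and the 3 genes most correlated with each member tested. Other genes are said to be named after their values were seen. The authors' own tables of comparisons and rhythm statistics were not used as values. Alternatives were the full set of 48 mice, other size factors, no filter, DESeq2, no time term, leaving out each time or mouse, a fold change of 1.5, Benjamini-Hochberg or CPM input for JTK_cycle, an F test of the cosine, and time as a factor.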

Additional observations from a re-analysis of the deposited data

Results flagged for a closer look

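In groups of 4 mice, the highest or lowest mouse was far from the other three (Dixon's test at 95%) in 8 of 96 groups of the members tested, and chance alone flags about 1 in 20 such groups. *Fkbp5* had 941 normalized counts in Bmal1IEC-/- SV439 at CT5, with the next mouse at 601.5. *Zbtb16* was lowest in control SV454 at CT1 (9.28, next 15.2) and highest in control SV434 at CT21 (45.3, next 20.5) and in Bmal1IEC-/- SV418 at CT9 (42.7, next 13.1). *Hsd11b1* was lowest in Bmal1IEC-/- SV470 at CT21 (43.6, next 70.7). *Errfi1* was lowest in control SV443 at CT5 (287, next 398) and Bmal1IEC-/- SV444 at CT21 (316, next 392), and highest in control SV424 at CT13 (451, next 349.6).

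The rhythm of *Tsc22d3* differed between control and Bmal1IEC-/- mice by the test of the difference itself (edgeR quasi-likelihood test, adjusted p = 0.0311 over all genes tested), and not with time as a factor (adjusted p = 0.0665).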

How the results depend on the processing

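The number of members that differed over the day, 2 in the report, was 3 with no filter on low counts, which added *Mt1*, 1 with no time term, 1 without CT5, 0 without CT9, 1 without CT13, and 0 with a fold change of 1.5, and ranged from 2 to 3 when single mice were left out. Of the 34 genes tested on the 4 lists, 6 were called, against 1 with no time term and 2 with a fold change of 1.5, and 6 to 8 when single mice were left out. The count over the 6 times, 3, was 5 with all 48 mice. Rhythm calls in control mice, 6, ranged from 4 to 7 when single mice were left out and were 4 with Benjamini-Hochberg adjustment. In Bmal1IEC-/- mice they were 5, 2 with Benjamini-Hochberg adjustment, 4 on CPM, and 3 to 6 when single mice were left out. The change of rhythm, called for 1 member, was called for 2 with all 48 mice, 2 with no filter and 0 with time as a factor, and for 0 to 1 when single mice were left out. The causes were not tested.

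Near 0, *Nr3c1* turned positive in its log2 fold change with all 48 mice (0.0008), DESeq2 size factors (0.0038), no filter (0.0095), DESeq2 (0.0039), and without CT5 (0.0036), CT9 (0.0183), CT17 (0.0329) or CT21 (0.0031), and ranged from -0.0114 to 0.0314 over single mice left out. *Errfi1* turned negative with no time term (-0.0094) and without CT9 (-0.0009), CT17 (-0.021) or CT21 (-0.0261), with a range from -0.0116 to 0.0289 over single mice. *Fkbp5* was 0.0242 without CT13, and *Fkbp4* was -0.0254 without CT1. None of these was called. Over all genes, 1590 calls became 807 with no time term and 209 with a fold change of 1.5, and the 141 changes of rhythm became 281 with all 48 mice and 76 with time as a factor. No paired analysis was possible because each replicate name belongs to 1 mouse and the groups share none.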
